A study of Oryctolagus cuniculus with 4 samples.

Results

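The genes described here were MYL4 (ENSOCUG00000010829), ACTC1 (ENSOCUG00000004074), MYBPH (ENSOCUG00000011021) and MYH8 (ENSOCUG00000010229), 4 of the 21139 features of the count table, each found by its name as 1 feature. They were chosen with their values in these same sections known, so their levels and their joint detection are given as a description, without a test. The data came from 3′ Visium, in which a tissue section lies on printed spots that capture polyadenylated RNA, and each captured molecule is counted once through its UMI. There were 4 sections of supraspinatus muscle, 1 per condition. The fresh healthy section came from muscle that was not stored, and the other 3 from muscle kept frozen for 6 years, which was either healthy or had been collected 2 weeks or 16 weeks after tenotomy, the cutting of the supraspinatus tendon. All animals were female New Zealand White rabbits, skeletally mature at 6 months, and all muscles were snap frozen. The labels of the 16-week and the stored healthy section begin with the same number, and whether these came from the same animal is not stated in the sources used here.

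MYL4 encodes the essential myosin light chain of embryonic muscle and of the atrium, ACTC1 the cardiac alpha-actin, MYH8 the perinatal myosin heavy chain, and MYBPH the myosin binding protein H of the thick filament. MYL4, ACTC1 and MYH8 are made by developing skeletal fibers, largely replaced by adult isoforms as fibers mature, and made again when fibers regenerate. Adult fibers are told apart by their heavy chains, of which MYH7 is the slow (type I) and MYH1 a fast (type IIx) form. A spot can hold parts of several fibers and other cells, so detection in the same spot is not detection in the same fiber.

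The sections held 1950 (fresh healthy), 2440 (stored healthy), 854 (2 weeks) and 1726 (16 weeks) spots under tissue with 4079313 to 12536450 UMIs per section and a median of 2090 to 5195 UMIs per spot. The lowest share of spots with MYH1 in any section was 96.4% and that with MYH7 was 92.2%. Of 2931 barcodes, 512 occurred in all 4 sections, and none was shared between any 2 sections among the spots with the highest counts of the 4 genes. These were only 24 to 33 spots per section, so few that an overlap of 0 tells little. Levels are given as UMIs per 10000 UMIs of the section or spot group. With 1 section per condition there are no replicates, so no p-value or standard error can be given, and all intervals are 95% intervals that cover counting error only. MYH2, MYH3 and ACTA1, close relatives of MYH8 and ACTC1, have no feature of that name, and whether molecules of related heavy chains or actins were counted for each other could not be checked. In spots, fewer fibers expressing a gene and less of its RNA per fiber cannot be told apart.

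MYL4, ACTC1 and MYBPH were highest at 16 weeks, and MYH8 at 2 weeks. MYL4, the embryonic light chain, had 1 UMI in fresh healthy muscle, 134 UMIs in stored healthy muscle (0.107 per 10000, interval 0.0896 to 0.127), 117 at 2 weeks (0.287, 0.237 to 0.344) and 486 at 16 weeks (1.02, 0.935 to 1.12). MYBPH followed the same order, with 11 UMIs in fresh healthy muscle (0.0157), 187 in stored healthy muscle (0.149, 0.129 to 0.172), 90 at 2 weeks (0.221, 0.177 to 0.271) and 544 at 16 weeks (1.15, 1.05 to 1.25). For both genes the 16-week section was the highest and no neighboring sections had overlapping counting intervals.

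ACTC1, the most abundant of the 4 by UMIs in every section, broke this order at 2 weeks. It had 324 UMIs in fresh healthy muscle (0.462 per 10000, 0.413 to 0.515), 6793 in stored healthy muscle (5.42, 5.29 to 5.55), 1215 at 2 weeks (2.98, 2.81 to 3.15) and 9054 at 16 weeks (19.1, 18.7 to 19.5). MYH8, the perinatal heavy chain, peaked at 2 weeks instead. It had 83 UMIs in fresh healthy muscle (0.118, 0.0942 to 0.147), 878 in stored healthy muscle (0.700, 0.655 to 0.748), 975 at 2 weeks (2.39, 2.24 to 2.54) and 208 at 16 weeks (0.439, 0.381 to 0.502). ACTC1 at 2 weeks and MYH8 at 16 weeks therefore lay below the stored healthy section while the other 3 genes lay above it.

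**Figure D1:**
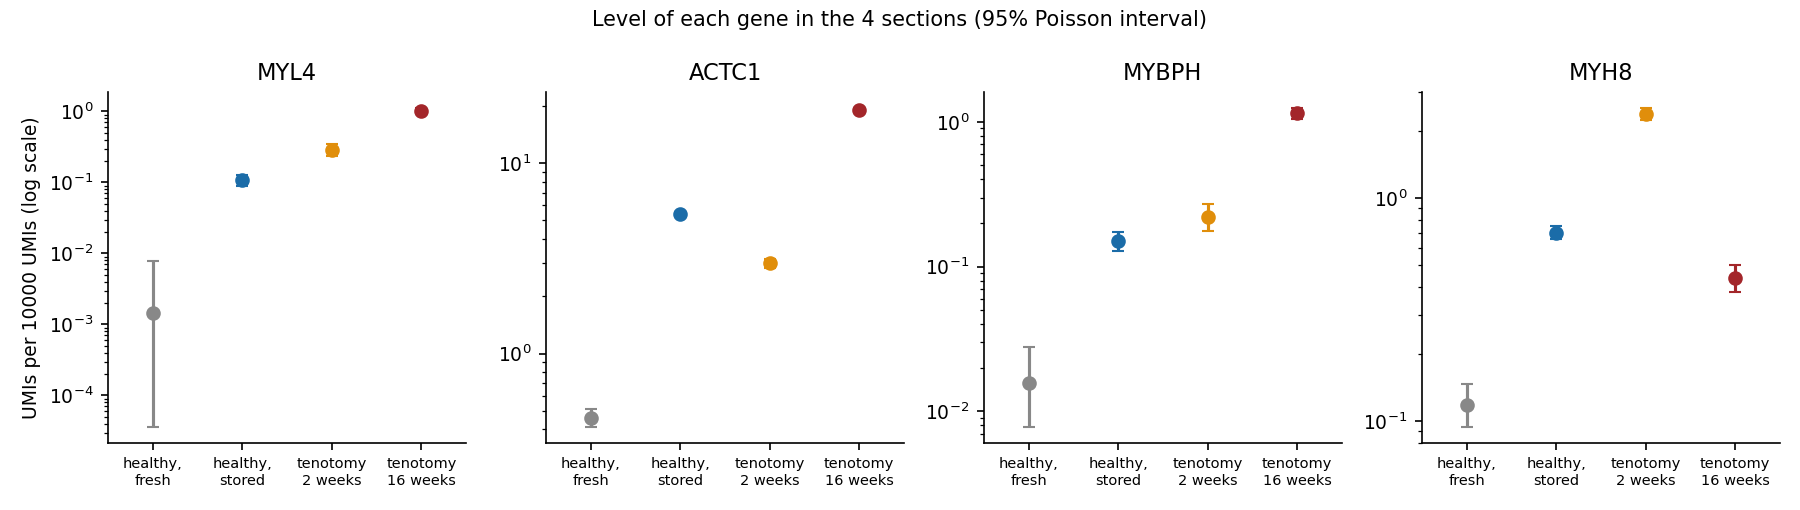
Level of MYL4, ACTC1, MYBPH and MYH8 in the 4 sections (x axis), in UMIs per 10000 UMIs on a log axis whose range differs between panels; points are section totals and bars 95% Poisson intervals. MYL4, ACTC1 and MYBPH were highest at 16 weeks, whereas MYH8 was highest at 2 weeks (2.39) and at 16 weeks (0.439) was under the stored healthy level (0.700).

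Set against stored healthy muscle, MYH8 was 3.41-fold (interval 3.11 to 3.74) and MYL4 2.68-fold (2.08 to 3.46) higher at 2 weeks, and MYBPH was 1.48-fold higher (1.14 to 1.91). ACTC1 stood at 0.550 of the stored healthy level (0.517 to 0.584). Thus 2 of the 4 genes passed a 2-fold increase, where 27.6% of all 5686 genes compared did. At 16 weeks MYL4 was 9.59-fold (7.90 to 11.7), MYBPH 7.69-fold (6.50 to 9.13) and ACTC1 3.52-fold (3.41 to 3.64) higher, so 3 of 4 passed a 2-fold increase, as did 46.9% of all genes, and MYH8 stood at 0.626 (0.536 to 0.729) of the stored healthy level.

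Some markers of other cells were also higher in the tenotomy sections, and others were not. At 16 weeks at least 2-fold higher were 2 of 2 fat, 2 of 2 vessel wall, 3 of 6 connective tissue and 3 of 6 macrophage genes compared, and the only nerve gene with enough UMIs, S100B, was 3.47 higher on the log2 scale. At 2 weeks these counts were 1 of 1, 2 of 2, 4 of 6 and 2 of 6, with S100B 1.83 higher. In both comparisons 0 of 2 endothelium genes were. Of all genes, 46.9% and 27.6% were at least 2-fold higher in these comparisons. The connective tissue and macrophage counts at 16 weeks and the macrophage count at 2 weeks lay near these shares. On the log2 scale the macrophage median at 2 weeks (0.26) was below the median gene (0.63). That of connective tissue at 16 weeks (0.92) was near it (0.93). The part of these other cells in the levels of the 4 genes was not tested.

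The median gene itself lay above the stored healthy section, by 0.63 on the log2 scale at 2 weeks and by 0.93 at 16 weeks. Relative to the median gene, the log2 differences at 2 weeks were 1.14 for MYH8, 0.79 for MYL4, -0.06 for MYBPH and -1.49 for ACTC1. At 16 weeks they were 2.32 for MYL4, 2.01 for MYBPH, 0.88 for ACTC1 and -1.61 for MYH8. The opposite positions of ACTC1 and MYH8 at the 2 times remained on this scale, while the direction of MYBPH at 2 weeks did not. The share of mitochondrially encoded UMIs, 49.2% in stored healthy muscle, was 33.8% at 2 weeks and 34.6% at 16 weeks, and its part in these differences was not tested beyond leaving out these genes.

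Between the tenotomy sections the contrast was sharper. From 2 to 16 weeks ACTC1 was 6.41-fold (6.04 to 6.81), MYBPH 5.20-fold (4.15 to 6.57) and MYL4 3.57-fold (2.91 to 4.41) higher, which put 3 of the 4 genes past a 2-fold increase against 18.1% of all genes. MYH8 at 16 weeks was 0.184 (0.157 to 0.213) of its level at 2 weeks and was past a 2-fold decrease with 5.26% of all genes. The median gene differed by 0.32 on the log2 scale here, less than the difference of any of the 4 genes.

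The fresh and the stored healthy section differed in all 4 genes. ACTC1 was 11.7-fold (10.5 to 13.2), MYBPH 9.52-fold (5.20 to 19.4) and MYH8 5.92-fold (4.72 to 7.51) higher in stored muscle, and MYL4, with its 1 UMI in fresh muscle, was 75.0-fold higher with an interval of 13.2 to 2985. So 4 of 4 passed a 2-fold increase, where 9.36% of all genes did and the median gene differed by -0.11 on the log2 scale. The share of MYH7 in the summed UMIs of MYH1 and MYH7 was 14.4% in fresh against 55.5% in stored healthy muscle. All 6 macrophage markers with enough UMIs to be compared were also at least 2-fold higher in the stored section, with a summed level of 0.720 against 0.182 per 10000. So were 5 of 6 connective tissue genes, with a summed level of 42.9 against 14.05, and the 1 nerve gene compared. Of vessel wall, endothelium and fat genes, 0 of 2, 0 of 2 and 0 of 1 were. Animal, storage, fiber composition and the content of other cells cannot be told apart between these sections.

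MYL4 and MYH8 counts, and those of MYBPH at 2 weeks, were in large part in few spots, and those of ACTC1 less so. The 10 spots with most MYL4 held 61.2% of its UMIs in stored healthy muscle, and the highest were 30, 26 and 7 UMIs in single spots. At 2 weeks the 10 highest spots held 58.1% of MYL4, 50.8% of MYH8 and 51.1% of MYBPH, and the highest MYH8 counts were 151, 59 and 51 UMIs. At 16 weeks the corresponding shares were 36.0% for MYL4, 51.9% for MYH8 and 11.2% for MYBPH. In stored healthy muscle the 10 highest spots held 25.4% of MYH8 and 21.9% of MYBPH. For ACTC1 the share was 9.30% in stored healthy muscle and 6.82% at 16 weeks, but 38.9% at 2 weeks and 33.0% in fresh healthy muscle. In fresh healthy muscle a single spot had 45 of the 83 MYH8 UMIs, with 0 UMIs of MYL4, ACTC1 and MYBPH among its 11000 UMIs.

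Spots with at least 1000 UMIs (1684 of fresh healthy, 2347 of stored healthy, 801 of 2-week and 1374 of 16-week muscle) were thinned to 1000 UMIs each. ACTC1 was then found in 3.39% of fresh healthy, 26.5% of stored healthy, 12.6% of 2-week and 70.3% of 16-week spots. Without thinning it was found in 9.33%, 56.4%, 31.7% and 77.1% of all spots, the shallower ones included. MYL4 was then found in 0, 0.426%, 1.37% and 6.91% of spots and MYH8 in 0.237%, 5.07%, 7.12% and 3.35%, in the same order of sections. Unthinned, MYH8 was found in nearly the same share of spots in stored healthy (17.9%) and 2-week (18.0%) muscle. The mean count per positive spot was 2.01 UMIs in stored healthy muscle and 6.33 at 2 weeks. At 2 weeks 40 spots had 5 or more MYH8 UMIs, where 15.5 were expected from depth alone, and in stored healthy muscle 27 had as many, where 0.273 were expected.

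Detection of the genes in the same spot was compared with the number of spots expected if each pair were independent within 10 strata of spot depth. At 2 weeks all 6 pairs were found together more often than this. MYL4 and MYH8 shared 38 spots where 15.2 were expected, a ratio of 2.50 (1.77 to 3.43), and MYL4 and MYBPH shared 17 where 6.43 were expected (2.64, 1.54 to 4.23). MYBPH and MYH8 shared 32 spots (2.15, 1.47 to 3.04), and ACTC1 shared 113 with MYH8 (1.69, 1.39 to 2.03), 40 with MYL4 (1.65, 1.18 to 2.25) and 39 with MYBPH (1.64, 1.17 to 2.24). Of the 47 spots with MYL4, 85.1% held ACTC1 and 80.9% held MYH8.

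The ratio has a low ceiling where a gene is in most spots, so the odds ratio within depth strata was computed too, against every gene found in at least 20 and at most 90% of the spots. At 2 weeks it was 18.8 for MYL4 with MYH8, 11.1 for ACTC1 with MYBPH, 10.4 for MYL4 with ACTC1, 9.17 for MYBPH with MYH8, 7.92 for MYL4 with MYBPH and 7.11 for ACTC1 with MYH8. All 3 partners of each gene were thus past an odds ratio of 2, which 13.3% of genes passed with MYL4, 3.01% with ACTC1, 12.4% with MYBPH and 5.44% with MYH8. Among 3882 genes, MYBPH, MYL4 and MYH8 were the 3 with the highest odds ratio with ACTC1. With MYH8, MYL4 ranked 2, MYBPH 4 and ACTC1 6 of 3881 genes. The ranks were lower with MYL4, where MYH8, ACTC1 and MYBPH ranked 18, 19 and 22 of 2922 genes, and with MYBPH, where ACTC1, MYH8 and MYL4 ranked 11, 14 and 15 of 2902.

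Stored healthy muscle gave a mixed picture. MYL4 was found with MYH8 in 24 spots where 11.8 were expected (2.04, 1.31 to 3.03) and with MYBPH in 10 where 4.31 were expected (2.32, 1.11 to 4.27), and ACTC1 was found with MYBPH in 115 (1.28, 1.05 to 1.53). MYL4 with ACTC1, in 48 spots, had an interval that reached 1 (1.35, 0.998 to 1.79). MYH8 and MYBPH, however, met in 32 spots where 30.9 were expected (1.03, 0.708 to 1.46), and MYH8 and ACTC1 in 277 where 260.5 were expected (1.06, 0.942 to 1.2). Odds ratios were 3.73 for MYL4 with ACTC1, 3.08 for ACTC1 with MYBPH, 3.0 for MYL4 with MYH8 and 2.99 for MYL4 with MYBPH, against 1.23 for ACTC1 with MYH8 and 1.05 for MYBPH with MYH8. An odds ratio of 2 was passed by 10.7% of genes with MYL4, 5.35% with ACTC1, 11.9% with MYBPH and 1.68% with MYH8. Among 4770 genes MYL4 ranked 7 by its odds ratio with MYH8, while ACTC1 ranked 1055 and MYBPH 2107.

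When the strata also separated spots by the MYH7 share of MYH1 and MYH7, the stored healthy section kept 1 pair with an interval above 1, MYL4 with MYH8 (2.05, 1.31 to 3.05). ACTC1 with MYBPH was then at 1.08 (0.891 to 1.29) and MYL4 with MYBPH at 1.67 (0.802 to 3.08). Both intervals also reached 1 when depth was counted without mitochondrial genes. That of ACTC1 with MYBPH did so too with strata of the share of adult sarcomere UMIs (0.957 to 1.39). MYL4 with MYBPH, on 10 spots, also reached 1 with 20 depth strata (0.997 to 3.82) and with at least 2 UMIs of each gene (0.0718 to 15.8). Without the 10 spots with most UMIs of the 4 genes its interval was 0.802 to 4.11. At 2 weeks all 6 intervals lay above 1 under strata of MYH7 share and under each of the other alternatives tried. The ratios themselves were lower with finer depth strata. MYL4 with MYH8 was at 2.99, 2.50 and 2.18 with 5, 10 and 20 strata, and at 1.88 with strata of MYH7 share. Depth differences left within the 10 strata may thus be part of the ratios and odds ratios given, which was not tested further.

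At 16 weeks the pair with the highest ratio of observed to expected spots was MYL4 with MYH8. MYL4 shared 38 spots with MYH8 where 12.1 were expected (3.14, 2.22 to 4.31) and 82 with MYBPH where 47.4 were expected (1.73, 1.37 to 2.15), and 183 of its 188 spots held ACTC1 (1.12, 0.968 to 1.3). MYBPH and MYH8 shared 34 spots (1.48, 1.02 to 2.07), a pair whose interval reached 1 when spots were also separated by MYH7 share (1.33, 0.923 to 1.86). The interval of this pair also reached 1 with depth counted without mitochondrial genes (0.931 to 1.88). It did so too with strata of the share of adult sarcomere UMIs (0.951 to 1.92). Without the 10 spots with most UMIs of the 4 genes it was 0.9 to 1.99. Odds ratios were 8.56 for MYL4 with ACTC1, 5.98 for MYL4 with MYH8, 3.09 for ACTC1 with MYBPH and 2.90 for MYL4 with MYBPH, but 1.90 for MYBPH with MYH8 and 1.56 for ACTC1 with MYH8. An odds ratio of 2 was passed by 6.46% of genes with MYL4, 6.56% with ACTC1, 4.3% with MYBPH and 9.94% with MYH8. ACTC1 and MYH8 had the highest odds ratios with MYL4 of 4322 genes. With MYH8, MYL4 ranked 2 of 3269 genes, MYBPH 392 and ACTC1 786. When at least 2 UMIs of each gene were asked for, MYL4 with MYH8 was at 9.52 (5.20 to 16.0) times the expected number at 16 weeks, 3.09 (1.91 to 4.71) at 2 weeks and 7.07 (3.05 to 13.9) in stored healthy muscle, on 14, 21 and 8 spots. By this count other pairs were above 1 too. MYBPH with MYH8 was at 4.58 (2.37 to 8.0) at 16 weeks, and in stored healthy muscle MYL4 with ACTC1 was at 1.94 (1.03 to 3.31) and ACTC1 with MYH8 at 1.35 (1.05 to 1.71).

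**Figure D2:**
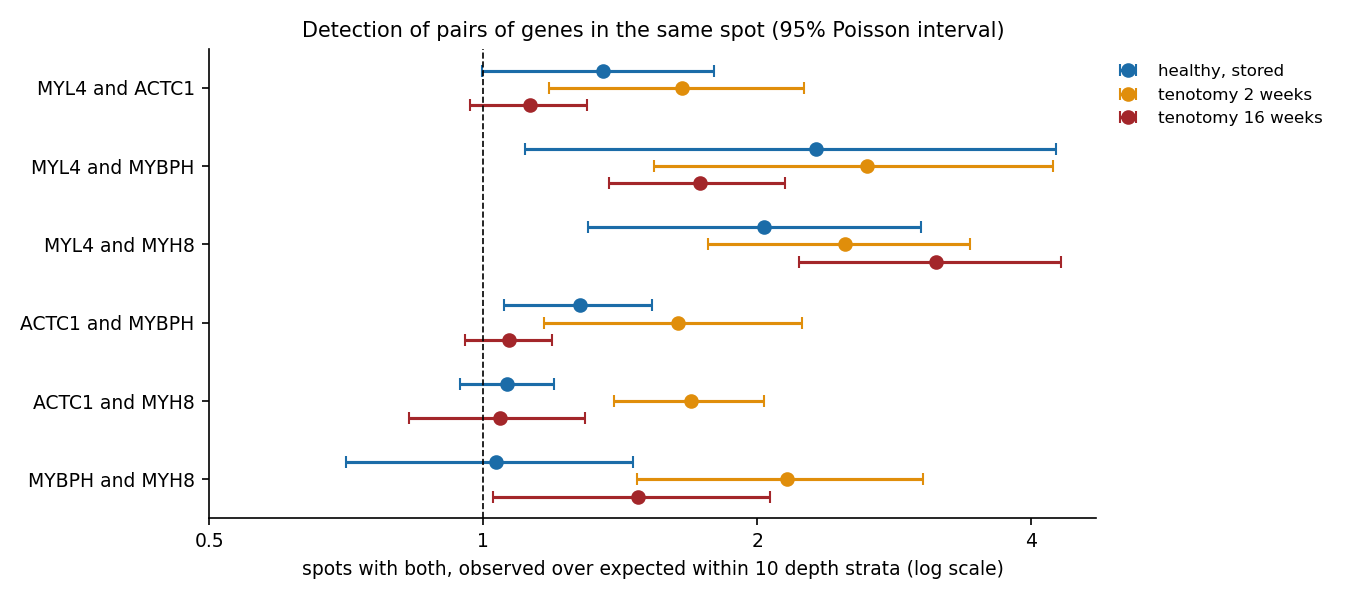
Number of spots with both genes of a pair over the number expected within 10 depth strata (x axis, log scale) for the 6 pairs (y axis) in the 3 stored sections; bars are 95% Poisson intervals of the observed number and the dashed line marks 1. All 6 pairs lay above 1 at 2 weeks, whereas ACTC1 with MYH8 was at 1.06 in stored healthy muscle and 1.04 at 16 weeks, and fresh healthy muscle is left out because MYL4 had 1 UMI there.

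All 4 genes were detected in 7 spots of stored healthy muscle, 17 spots at 2 weeks and 22 spots at 16 weeks, where 0.816, 1.95 and 3.12 were expected within depth strata. No spot of fresh healthy muscle had more than 2 of them. There ACTC1 and MYH8 met in 4 spots (2.34 expected) and ACTC1 and MYBPH in 3 (1.12 expected), too few to read.

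The spots with the highest counts differed between sections in their mixture. The 2 spots of stored healthy muscle with most MYL4 (30 and 26 UMIs) also had the most MYH8 (53 and 83 UMIs), and they held 70 and 109 UMIs of ACTC1 but 3 and 1 of MYBPH. Their MYH7 shares were 97.2% and 94.7%. Other spots of this section had much ACTC1 with little or no MYL4 and MYH8. Thus 1 spot had 77 UMIs of ACTC1 and 2 of MYBPH with 0 of MYL4 and MYH8, at an MYH7 share of 98.8%. At 2 weeks the spot with most MYL4 (28 UMIs) had 78 of ACTC1 and 46 of MYH8 at an MYH7 share of 6.73%, and the spot with most MYH8 (151 UMIs) had 42 of ACTC1 and 3 of MYL4. At 16 weeks a single spot had the highest counts of ACTC1 (146) and MYH8 (37) together with 22 UMIs of MYL4 and 8 of MYBPH, at an MYH7 share of 96.3%, whereas the spot with most MYL4 (29 UMIs) had 1 of MYH8.

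**Figure D3:**
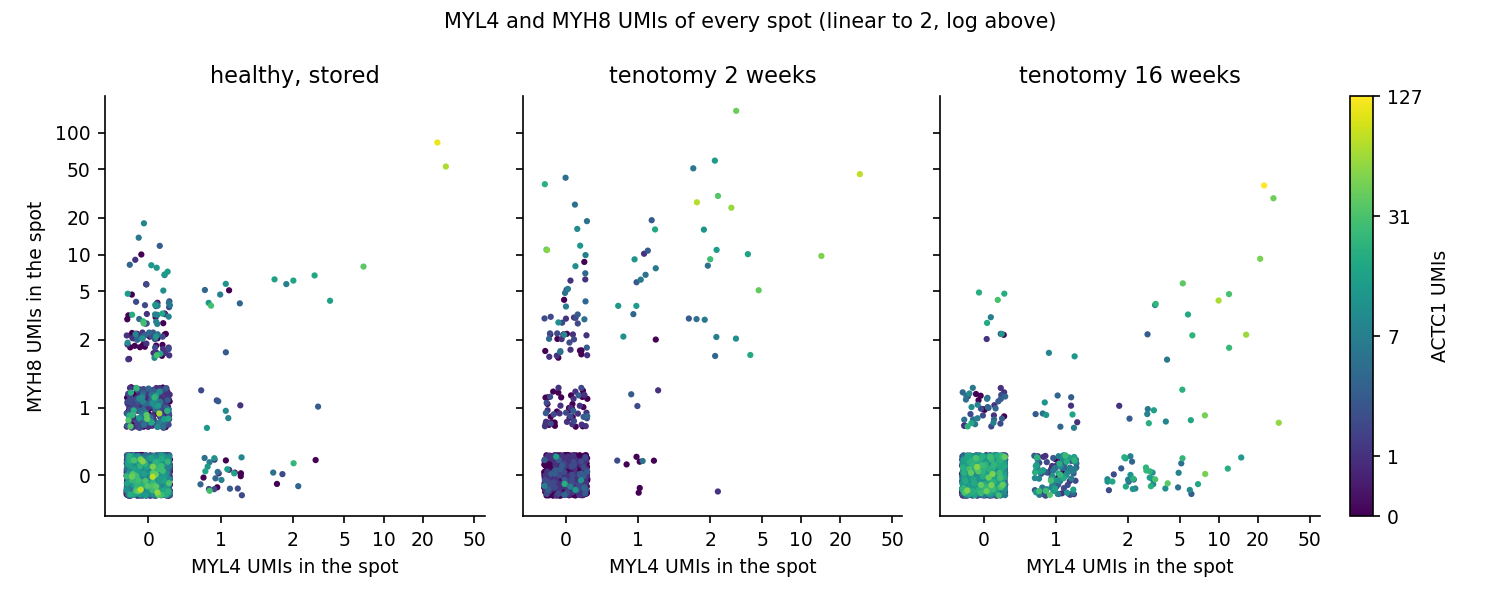
UMIs of MYL4 (x axis) and MYH8 (y axis) in every spot of the 3 stored sections, colored by UMIs of ACTC1; axes are linear to 2 and logarithmic above, and points are shifted by up to 0.3 so that they do not hide each other. In stored healthy muscle 2 spots stand apart with 30 and 26 MYL4 UMIs, at 2 weeks spots with much MYH8 reach 151 UMIs, and at 16 weeks many spots hold MYL4 with 0 MYH8.

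Spots with MYH8 were then divided by whether they held MYL4. Of 436 spots with MYH8 in stored healthy muscle, 412 had no MYL4, and their ACTC1 level (5.61 per 10000, 5.31 to 5.92) and MYBPH level (0.138, 0.0945 to 0.195) were near those of the 1971 spots with neither gene (4.99, 4.85 to 5.13, and 0.144, 0.121 to 0.170). The 24 spots with both had 22.7 (20.6 to 25.1) of ACTC1 and 0.518 (0.237 to 0.983) of MYBPH, and their median MYH7 share was 93.4%, against 42.6% in spots with MYH8 alone. Pooled over the stored healthy spots with MYH8 alone, ACTC1 was thus little higher and MYBPH no higher than in spots with neither. Of all MYH8 spots, 314 of 436 held a single MYH8 UMI here, against 63 of 154 at 2 weeks. The groups of these sections are therefore not alike, and a spot without MYL4 is one where it was not detected.

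At 2 weeks MYH8 without MYL4 did come with ACTC1. The 116 such spots had 4.46 per 10000 (3.97 to 4.99) of ACTC1 and 0.400 (0.263 to 0.582) of MYBPH, against 0.977 (0.868 to 1.10) and 0.0806 (0.0516 to 0.120) in the 691 spots with neither. The 38 spots with both reached 16.2 (14.9 to 17.5) of ACTC1 and 1.03 (0.730 to 1.40) of MYBPH, and their median MYH7 share was 5.21%. At 16 weeks the 52 spots with MYH8 alone had an ACTC1 level (14.9, 13.2 to 16.8) no higher than spots with neither (16.9, 16.5 to 17.3). The 150 spots with MYL4 alone had 26.9 (25.5 to 28.4) and the 38 with both had 54.7 (51.1 to 58.6), with 2.26 and 4.51 of MYBPH.

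**Figure D4:**
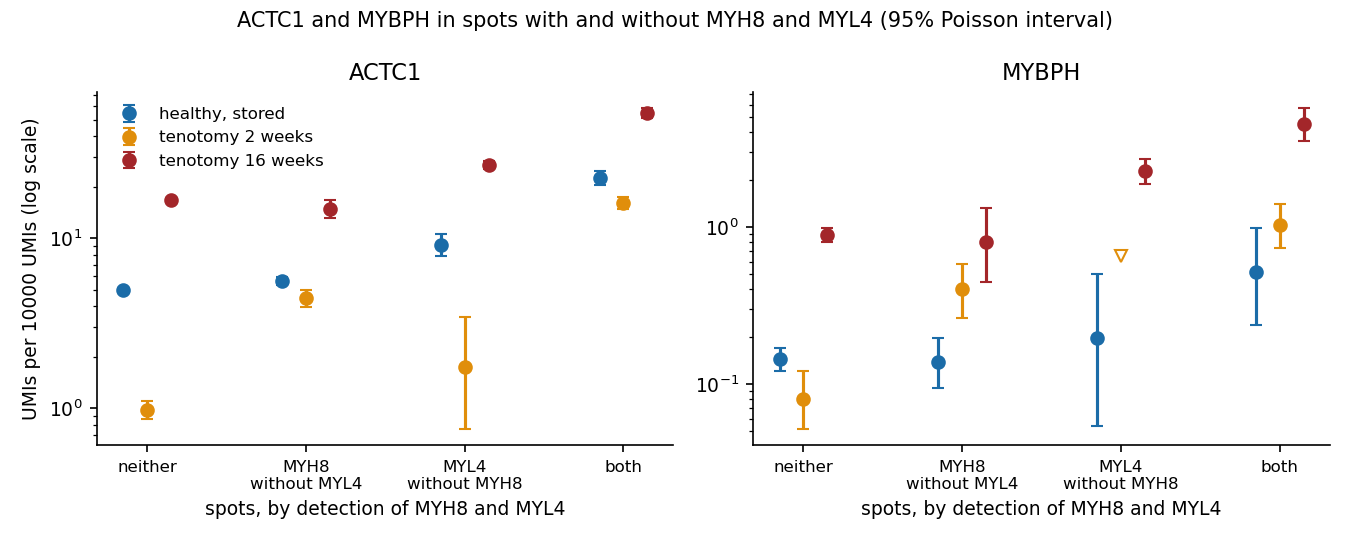
Level of ACTC1 and MYBPH (UMIs per 10000 UMIs, log axis) in spots grouped by detection of MYH8 and MYL4, for the 3 stored sections; bars are 95% Poisson intervals and the open triangle marks the level that 3 counts would give where the count was 0. At 2 weeks ACTC1 was 4.46 in spots with MYH8 alone against 0.977 in spots with neither, whereas in stored healthy muscle these were 5.61 and 4.99.

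The relation to fiber type was read from the MYH7 share of MYH1 and MYH7 UMIs, in spots with at least 20 such UMIs. Spots with a share of at least 50% are called slow and the others fast. ACTC1 was higher in slow spots of stored healthy muscle (9.23 against 1.40 per 10000, 6.58-fold, 6.11 to 7.08), as were MYBPH (0.227 against 0.0672, 3.38-fold, 2.37 to 4.92) and MYL4 (0.161 against 0.0521, 3.10-fold, 2.06 to 4.79). MYH8 differed little (0.769 against 0.593, 1.3-fold, 1.13 to 1.49). It was found in 16.65% of slow and 20.09% of fast spots, and 2 slow spots held 83 and 53 of its 491 UMIs in slow spots. Thus 3 of 4 genes passed a 2-fold increase in slow spots, as 8.12% of all genes did. Without the 10 spots with most UMIs of each gene, the same count was 3.

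The gradient was not even over the range. ACTC1 in stored healthy muscle was 1.24, 1.33, 2.04, 3.15 and 13.6 per 10000 in spots with a share of 0 to 20%, 20 to 40%, 40 to 60%, 60 to 80% and 80 to 100%. MYBPH lay between 0.0464 and 0.0711 in the 4 lower bins and reached 0.349 (0.292 to 0.414) in the highest, and MYL4 lay between 0.0371 and 0.0649 and reached 0.242 (0.195 to 0.296). MYH8 lay between 0.533 and 0.629 in the lower bins and at 0.935 (0.840 to 1.04) in the highest. However, 83 and 53 of its 356 UMIs in the highest bin came from single spots. The share of spots with MYH8 was no higher in that bin (17.6%) than in the lowest (19.6%).

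At 2 weeks the pooled level went the other way for 3 of the genes. The 52 slow spots held 2 of 973 MYH8 UMIs, a level of 0.0658 against 2.58 in fast spots, or 39.2-fold (10.8 to 324) lower. That interval counts UMIs as if independent, and the 10 highest spots of the section held 50.8% of MYH8. By spots the difference was smaller, with MYH8 in 3.85% of slow and 19.5% of fast spots. The slow spots held 0 of 117 MYL4 UMIs, which is at least 3.15-fold lower with 3 counts put in place of 0, where the exact interval of the ratio begins at 2.52. Both bounds count UMIs as if independent, and 28 and 14 of the 117 came from single spots. MYL4 was found in 6.08% of fast spots. At that share few of the 52 slow spots would hold it, so by spots the 0 gives no clear direction. In the slow spots ACTC1 stood at 0.488 of its fast level (1.51 against 3.10, 0.355 to 0.655). Yet it was found in 36.5% of slow and 32.5% of fast spots, and the 10 highest spots of the section held 38.9% of its UMIs. Over the 5 bins of the share it was at 3.36, 2.15, 1.1, 1.26 and 5.05 per 10000, the last on 15 UMIs in 2 spots. MYBPH was at 0.329 in slow against 0.212 in fast spots (1.55-fold, 0.716 to 3.0), and 8 of its 10 UMIs in slow spots came from 1 spot. So 3 of 4 genes were past a 2-fold decrease in slow spots, against 11.1% of all genes, with ACTC1 near the limit at -1.02 on the log2 scale. By bins of the share, MYH8 was at 2.46, 3.22 and 1.06 per 10000 in spots under 20%, from 20 to 40% and from 40 to 60%, and MYL4 at 0.373, 0.0623 and 0. Of the 207 MYH8 UMIs from 20 to 40%, 151 came from 1 spot. In the 16-week section all 4 were higher in slow spots: MYL4 3.30-fold (2.28 to 4.96), ACTC1 2.64-fold (2.45 to 2.85), MYH8 2.48-fold (1.48 to 4.45) and MYBPH 2.01-fold (1.51 to 2.72). With 0.5 UMI added to each count, 3 of them passed a 2-fold increase, against 5.11% of all genes, and MYBPH lay just below it at 0.99 on the log2 scale. By bins, MYL4 at 16 weeks was at 0.105, 0.101, 0.679, 1.31 and 1.25 per 10000 and MYBPH at 0.0527, 0.328, 1.40, 1.5 and 1.15, so MYBPH was near its highest level from a share of 40% and MYL4 from a share of 60%. ACTC1 went on from 14.8 to 21.3 and 26.4 over the same bins. MYH8 rested on few spots here: without its 10 highest spots its log2 difference was -0.18 (-0.97 to 0.76).

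Over single spots, Spearman's rho between level and share was 0.56 for ACTC1 in stored healthy muscle and 0.45 at 16 weeks, but -0.07 at 2 weeks and 0.01 in fresh healthy muscle, and between -0.20 and 0.19 for the other genes. These are descriptions over 825 to 2281 spots that share a library, and detection in few spots limits rho. In fresh healthy muscle slow spots were few (97, against 1582 fast). ACTC1 was 1.64 against 0.378 per 10000 there (4.34-fold, 3.30 to 5.64), where 8.1% of all genes passed a 2-fold increase, but 28 and 25 of its 75 UMIs in slow spots came from single spots and the log2 difference without its 10 highest spots was -0.26. MYH8 had 0 of 72 UMIs in slow spots, at least 1.71-fold lower with 3 counts put in place of 0, where the exact interval of the ratio begins at 1.36. By the same 0.5 UMI rule it was past a 2-fold decrease, with 8.31% of all genes, and 45 of the 72 came from 1 spot. MYH8 was found in 1.39% of fast spots. At that share few of the 97 slow spots would hold it, so by spots the 0 gives no direction.

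**Figure D5:**
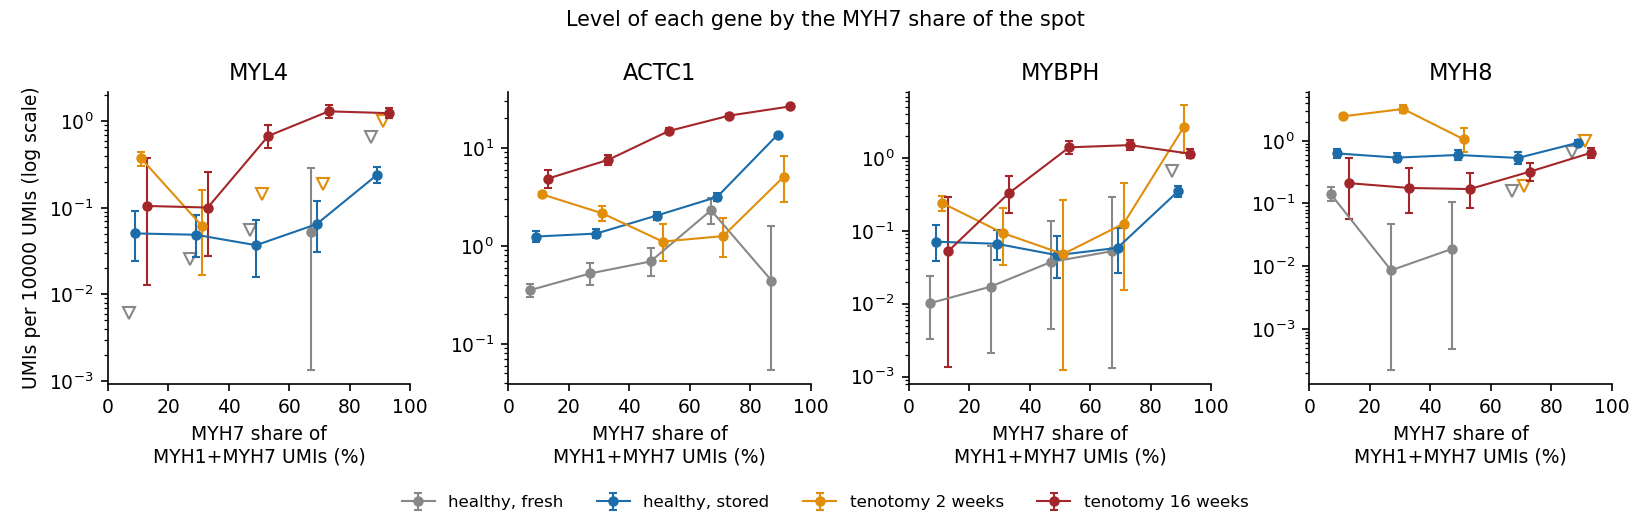
Level of each gene (UMIs per 10000 UMIs, log axis, range differing between panels) in spots binned by the MYH7 share of MYH1 and MYH7 UMIs (x axis, %), by section; bars are 95% Poisson intervals and open triangles mark the level that 3 counts would give where the count was 0. ACTC1 was higher at a higher share in stored healthy muscle (1.24 to 13.6) and at 16 weeks (4.85 to 26.4), whereas at 2 weeks MYH8 and MYL4 had 0 UMIs in spots with a share of 60% or more.

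Since the sections differed in MYH7 share (14.2% at 2 weeks and 67.7% at 16 weeks over whole sections), the genes were compared between sections in spots of the same share. In spots with a share under 20%, 629 at 2 weeks and 404 in stored healthy muscle, ACTC1 was 2.70-fold higher at 2 weeks (3.36 against 1.24 per 10000, 2.35 to 3.12), although the whole section was lower. MYL4 was 7.35-fold (3.85 to 15.7), MYH8 3.9-fold (3.22 to 4.76) and MYBPH 3.39-fold (1.90 to 6.50) higher there. All 4 genes thus passed a 2-fold increase in these spots, as did 30.4% of all genes, and the median gene was 0.66 higher on the log2 scale. The stored healthy side of the MYL4 ratio was 10 UMIs, 7 of them in 1 spot. By share of spots in this bin, ACTC1 was found in 32.6% at 2 weeks and 37.6% in stored healthy muscle, and MYH8 in 21.3% and 19.6%. For MYL4 these shares were 7.15% and 0.990%, and for MYBPH 5.72% and 3.47%. Without the 10 spots of each section in this bin with most UMIs of the gene, ACTC1 was 2.13-fold (1.80 to 2.54) and MYH8 3.37-fold (2.63 to 4.36) higher. Fewer stored healthy spots held these genes (152 against 205 and 79 against 134), so leaving out 10 took a larger part of them. These 2 values cannot be set beside the full ones directly. From 20 to 40%, with 126 and 554 spots, the picture was less uniform: ACTC1 was 1.61-fold (1.32 to 1.96), MYBPH 1.41-fold (0.459 to 3.66) and MYL4 1.27-fold (0.305 to 4.05) higher, all 3 at or below the median gene (0.70 on the log2 scale), and MYH8 was 5.98-fold (4.83 to 7.41) higher. A single 2-week spot held 151 of the 207 MYH8 UMIs in that bin. Without the 10 highest spots of each section in that bin ACTC1 stood at 0.574 (0.390 to 0.819) and MYH8 at 0.211 (0.0674 to 0.507) of the stored healthy level there. In that bin MYH8 was found in 15 spots at 2 weeks and 115 of stored healthy muscle, and ACTC1 in 39 and 226. Leaving out 10 spots per section took a larger part of the 2-week ones. A lower value was thus in part built in, and these 2 values give no direction. MYL4 had 4 UMIs against 14 in this bin, fewer than the 20 asked of a gene. Of the genes with enough UMIs, ACTC1, MYBPH and MYH8, 1 was past a 2-fold increase over all spots of the bin, as were 32.3% of all genes.

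In spots with a share of 80% or more, 417 at 16 weeks and 630 in stored healthy muscle, MYL4 was 5.16-fold (4.02 to 6.66), MYBPH 3.29-fold (2.63 to 4.13) and ACTC1 1.95-fold (1.87 to 2.02) higher at 16 weeks. MYH8 stood at 0.685 (0.548 to 0.850) of the stored healthy level, and at 0.263 (0.152 to 0.429) without the 10 highest spots of each section in this bin. So 2 of 4 genes passed a 2-fold increase, against 22.4% of all genes, with the median gene 0.48 higher. Without the 10 highest spots MYL4 was 10.8-fold (6.74 to 18.3) higher, and the highest stored healthy spots described above hold 30 and 26 of its 92 UMIs in this bin. MYL4 was found in 74 spots of the bin at 16 weeks and 31 of stored healthy muscle, and MYH8 in 27 and 111. Leaving out 10 per section thus took unequal parts of them, so these 2 values cannot be set beside the full ones directly.

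Stored and fresh healthy muscle also differed in spots of the same share. Under 20%, ACTC1 was 3.53-fold (2.90 to 4.32), MYH8 4.42-fold (3.27 to 6.01) and MYBPH 6.99-fold (2.38 to 24.8) higher in stored muscle, and MYL4, with 10 UMIs against 0, was at least 8.32-fold higher with 3 counts put in place of 0, where the exact interval of the ratio begins at 5.59. Of the 10 MYL4 UMIs, 7 came from 1 of the 4 stored spots that held any, and both bounds count UMIs as if independent. MYBPH had 14 UMIs against 5, so that it and MYL4 had fewer than the 20 UMIs asked of a gene. Both genes with enough UMIs, ACTC1 and MYH8, passed a 2-fold increase, as did 5.7% of all genes there. Without the 10 highest spots of each section in this bin MYH8 was 19.6-fold (10.1 to 42.6) higher, and a single fresh spot held 45 of its 70 UMIs. MYH8 was found in 20 fresh and 79 stored spots of the bin. Leaving out 10 per section took a larger part of the fresh ones, so 19.6 cannot be set beside 4.42 directly.

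Spots with fewer than 20 UMIs of MYH1 and MYH7 together are described apart. Shallow spots fall into this class too, so it does not single out spots poor in fiber. At 16 weeks 617 spots were of this kind, and they held MYL4 at 1.12 per 10000 (0.882 to 1.41) and MYBPH at 1.09 (0.855 to 1.38), near the 1.01 and 1.16 of the other spots. ACTC1 was lower in them (11.2 against 20.4). Their median depth was 972 UMIs against 3187, so the share of such spots with MYL4 (7.13% against 13.0%) cannot be set beside the others directly. In 159 such spots of stored healthy muscle there were 0 UMIs of MYL4, which allows a level of up to 0.148 by 3 counts and 0.182 by the Poisson interval, and MYH8 was at 1.68 (1.16 to 2.34) against 0.684 in the other spots. At 2 weeks only 29 spots were of this kind.

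The genes whose levels followed each member most closely over the spots of a section were ranked by Pearson correlation, as a description over 801 to 2347 spots that share a library and depth. At 2 weeks the other 3 members were among the 5 highest of 2056 genes for every member, with r from 0.25 (MYL4 with MYBPH) to 0.57 (ACTC1 with MYH8). BGLAP, which encodes osteocalcin, a protein best known from bone, was in all 4 of these lists, with r = 0.50 for MYL4, 0.35 for MYH8, 0.32 for ACTC1 and 0.26 for MYBPH. HSPB1, a small heat shock protein, was in 3 of the lists and CASQ2, the calsequestrin of slow and cardiac muscle, was in that of MYL4.

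BGLAP had 0 UMIs in fresh healthy muscle, 10 in stored healthy muscle, 89 at 2 weeks and 13 at 16 weeks. At 2 weeks it was found in 33 spots, 27 of which held MYH8 (10.5 expected within depth strata) and 15 MYL4 (4.62 expected), and a single spot had 29 of its UMIs. It was found in 8 spots each of stored healthy and 16-week muscle, too few to read.

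ACTC1 followed slow-fiber genes in stored healthy muscle and at 16 weeks. Its highest correlations were with MYL2, the slow regulatory light chain (0.61 and 0.51), MYH7 (0.59 and 0.51) and TNNC1, the slow troponin C (0.50 and 0.49), and CRYAB, a small heat shock protein, was also among the 5 in both (0.58 and 0.45). MYBPH in stored healthy muscle had a list of the same kind, led by ACTC1 (0.30), CRYAB (0.29), MYL2 (0.23) and MYH7 (0.22). MYL4 and MYH8 were each other's highest in stored healthy muscle (0.23) and at 16 weeks (0.37), where no other gene exceeded 0.30 with MYL4. MYL4 in stored healthy muscle was next followed by ACTC1, MMP12, ATP6V0D2 and GPNMB at 0.15, of which MMP12 is the macrophage elastase and GPNMB a glycoprotein of macrophages and osteoclasts. NES, the intermediate filament protein nestin, was second for MYH8 at 16 weeks (0.22) and highest in fresh healthy muscle (0.18).

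Other genes were compared between spots with at least 2 of MYL4, MYBPH and MYH8 and spots with none of these 3. There were 52 such spots in stored healthy muscle, 53 at 2 weeks and 110 at 16 weeks, against 1867, 678 and 1234 with none, and they were deeper (medians of 6724, 7278 and 3678 UMIs against 5067, 4338 and 1676). The median MYH7 share was 95.9% against 47.5% in stored healthy muscle, 5.08% against 10.5% at 2 weeks and 78.1% against 69.2% at 16 weeks. ACTC1 did not enter the choice of the spots, but it is a member chosen with its values known. It was 5.49-fold (5.08 to 5.93), 19.2-fold (16.5 to 22.4) and 2.45-fold (2.31 to 2.59) higher. These differences were not separated from those in MYH7 share. At least 2-fold higher levels were seen for 20.4% of all genes in stored healthy muscle, 4.32% at 2 weeks and 8.86% at 16 weeks.

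Of 12 genes of a developmental list, 3 have a feature of that name: NES, CHRNA1, a subunit of the muscle acetylcholine receptor, and MYH7B. NES and MYH7B were 3.48-fold and 2.39-fold higher in the spots of stored healthy muscle, NES (4.66-fold, 3.74 to 5.78) and CHRNA1 (5.87-fold, 3.11 to 11) at 16 weeks, and none passed 2-fold at 2 weeks, where NES was 1.44-fold (0.923 to 2.18) higher. Of the denervation and stress list, 3 of 8 genes compared were at least 2-fold higher in stored healthy muscle, 2 of 7 at 2 weeks and 3 of 8 at 16 weeks. The shares of all genes were 20.4%, 4.32% and 8.86%, in the same order. NCAM1, an adhesion molecule that denervated and regenerating fibers carry, was 9.68-fold (4.15 to 20.9) higher in stored healthy muscle and 6.20-fold (2.58 to 14.7) at 16 weeks, on 10 and 12 UMIs. ANKRD1, a stretch-responsive ankyrin repeat protein, was 2.38-fold (2.17 to 2.61) higher at 2 weeks and 4.63-fold (3.90 to 5.48) at 16 weeks, but 1.05-fold in stored healthy muscle. HSPB1 was 2.66-fold (2.46 to 2.88) higher at 2 weeks, which together with ANKRD1 made up the 2 genes of that section. ANKRD2 stood at 0.434 (0.305 to 0.601) there, and the median of the 7 genes was -0.05 on the log2 scale. Without the 10 spots with most UMIs of the 4 members, 1 of 7 passed a 2-fold increase.

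Only a few myogenic regulators had enough UMIs to be compared. Of 5 compared in stored healthy muscle, 1 was at least 2-fold higher (MEF2D), as were 0 of 4 at 2 weeks and 1 of 4 (MYF6) at 16 weeks. The shares of all genes were 20.4%, 4.32% and 8.86%, and so few regulators do not show whether the list differed from them. MYF5 had 0 UMIs against 29 in stored healthy muscle, a ratio whose interval of 0 to 3.28 gives no direction. MYOG, the factor of differentiating myoblasts, had 1 to 4 UMIs in each whole section. Of the adult sarcomere list none of 13 genes passed a 2-fold increase in any section. At 2 weeks the slow genes MYH7, MYL3 and TNNC1 stood at 0.389, 0.436 and 0.382, and in stored healthy muscle MYH1 stood at 0.398.

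Macrophage markers were higher in the same spots of 2 sections. At least 2-fold higher in such spots were 20.4% of all genes in stored healthy muscle, 4.32% at 2 weeks and 8.86% at 16 weeks. The median gene differed by 0.41, -0.09 and 0.27 on the log2 scale, in the same order. Of 6 compared in stored healthy muscle, 5 were at least 2-fold higher, among them SPP1 (19.1-fold, 11.8 to 30.7) and CD68 (14.6-fold, 11 to 19.2), with a summed level of 4.08 against 0.566 per 10000. At 16 weeks 3 of 4 were, among them CD74 (5.31-fold, 4.10 to 6.87), with a summed level of 4.24 against 1.15. Without the 10 spots with most UMIs of the 4 members, 4 of 5 were in stored healthy muscle and 2 of 4 at 16 weeks, and the median log2 difference was 1.53 in place of 2.30 and 0.82 in place of 1.71. At 2 weeks 0 of 3 were, with a summed level of 1.46 against 1.15. CD163, a defining marker, had 1 UMI in these spots of each section. Of the fat, vessel wall, endothelium and nerve genes compared in the 2-week spots, LPL stood at 0.339, VWF at 0.356 and S100B at 0.316, whereas PECAM1 (0.893, 0.227 to 2.57), ACTA2 (0.806) and MYH11 (0.663) did not pass a 2-fold decrease. LPL and S100B were the only fat and nerve genes with enough UMIs. Connective tissue genes reached 2-fold for 3 of 6 in stored healthy muscle and for none at 2 and 16 weeks. The part of these cells in the levels of MYL4, MYBPH and MYH8 was not tested.

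Over whole sections the developmental list was higher along with ACTC1, MYBPH and MYL4 in some comparisons and not in others. In stored against fresh healthy muscle 3 of its 3 genes were at least 2-fold higher, where 9.36% of all genes were. From 2 to 16 weeks NES (log2 difference 1.08) and MYH7B (2.19) were, where 18.1% of all genes were, and at 2 weeks against stored healthy muscle none was, with MYH7B at -1.32. At 16 weeks against stored healthy muscle CHRNA1 passed 2-fold (1.0), as did 46.9% of all genes, with NES at 0.90 and MYH7B at 0.87, all near the median gene. Myogenic regulators and the denervation and stress list had medians of 0.86 and -0.25 at 2 weeks and 0.64 and 0.47 at 16 weeks against stored healthy muscle, all but the first under the median gene.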

How the data were processed

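UMIs were measured per gene and spot in 4 sections, 1 per condition. The authors made the deposited counts with Space Ranger 1.2.0 on OryCun2.0, per the labels, and the counts of spots under tissue were used without normalization or filter. Position lists without barcodes were not used. No reads were used, so molecules shared between related actin or myosin genes could not be checked. The members, lists and comparisons were chosen with earlier results of these data known. Levels are UMIs per 10000 UMIs. Sums carry exact Poisson, shares Clopper-Pearson and ratios exact conditional intervals. Genes with at least 20 UMIs over both groups were compared, and a 2-fold call used log2 ratios with 0.5 UMI added. Co-detection used 10 depth strata and a Mantel-Haenszel odds ratio for genes with at least 3 expected spots. Correlations used log2 of depth-scaled counts plus 1, spots with at least 1000 UMIs and genes with at least 50 UMIs and a symbol. The genes named were the members, MYH1, MYH7, the fixed lists, cell type markers and the 5 genes most like each member. The values of BGLAP were looked up after its correlations were seen. Lists were short of features: 3 of 12 developmental, 13 of 23 adult sarcomere, 8 of 12 myogenic, 10 of 13 denervation and stress, 6 of 7 connective tissue and 7 of 7 macrophage genes had one. The 37 mitochondrially encoded genes were recognized by their neighboring identifiers. The tools were scipy 1.17.1 and numpy 2.4.6 under Python 3.11.15, with pandas 2.3.3 for tables and matplotlib 3.10.9 for figures, and the statistics were tested on simulated data.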

Additional observations from a re-analysis of the deposited data

Results flagged for a closer look

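For 3 genes the 2-week and the 16-week section lay on opposite sides of a comparison, with 1 section each, so the difference was not tested. Against stored healthy muscle the log2 ratio of ACTC1 was -0.86 at 2 weeks and 1.82 at 16 weeks, and that of MYH8 was 1.77 at 2 weeks and -0.67 at 16 weeks. Between slow and fast spots of the section, the log2 ratio at 2 and 16 weeks was -1.02 and 1.40 for ACTC1, -4.97 and 1.27 for MYH8, and -4.25 and 1.70 for MYL4. The value of -4.25 stems from 0 UMIs in slow spots with 0.5 UMI added and is no bound, and 2 UMIs in slow spots stand behind -4.97. At 2 weeks ACTC1 was found in 36.5% of slow and 32.5% of fast spots, so its share of spots did not go the way of its level.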

How the results depend on the processing

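No paired analysis was possible because each condition has 1 section. Of the recomputed counts, 90 stayed within 1.5 times the reported count and 14 did not. Of 64 recomputed log2 ratios between sections 31 left the interval reported, as did 44 of 48 percentages of spots, and of 70 between slow and fast spots 11 did and 2 turned direction. At 2 weeks against stored healthy muscle, the number of genes at least 2-fold lower was 0, and it became 1 without mitochondrial genes, without the 10 highest spots and with the median gene at 0, and the last also took the number higher from 2 to 1. At 16 weeks the number lower went from 0 to 1 in the same 3 settings. In stored healthy muscle the pairs with an interval above 1 went from 3 to 1 with depth counted without mitochondrial genes and with strata of MYH7 share. In fresh healthy muscle the genes past 2-fold in slow spots, 1 higher and 1 lower, became 0 and 0 both when the upper and lower parts of the spots by share were compared and without the 10 highest spots, and the lower one became 0 with at least 50 UMIs of MYH1 and MYH7. Without the 10 highest spots the log2 difference between slow and fast spots turned to -0.26 for ACTC1 in fresh healthy muscle and to -0.18 for MYH8 at 16 weeks. Of 183 recomputed ratios of observed to expected spots, 172 stayed inside the interval reported and 11 did not. Among the 70 genes listed as most like a member, 52 were kept with Spearman ranks and 62 with all spots. The matched-share values and spot groups without the 10 highest spots were added after seeing the data. Apart from the scaling, which was set by construction, the cause of each change was not tested. Few UMIs limited MYL4 and MYBPH in fresh healthy muscle, with 1 and 11, and differences between animals could not be seen at all.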
